A study of Mus musculus with 8 samples.

Results

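Transcripts of 10 genes, of apolipoproteins and of high-density lipoprotein (HDL) remodelling, were followed in whole liver. These are the apolipoproteins Apoa1, Apoa2, Apoa4, Apoa5, Apoc3, Apoe and Apom, the plasma enzyme Lcat, the transfer protein Pltp and the HDL receptor Scarb1. They were chosen by name, with earlier results of these data known. Each is read by 1 probe set of the array that is annotated to that gene alone. All 10 of the 10 were measured, among 19938 genes in all. The 2 groups are 4 transgenic mice, in which the LAP promoter drives a constitutively active IKK2, and 4 wild type mice. All were 4 weeks old, of mixed C57BL/6 and NMRI descent with at least 4 backcrosses to C57BL/6, and each liver was hybridised to its own Affymetrix array. No sex is stated. The labels call the mice of a group biological replicates, and p-values measure the spread between these animals. LAP is a promoter active in hepatocytes, while the RNA came from the whole organ, so fewer hepatocytes and less RNA per hepatocyte cannot be told apart.

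HDL carries cholesterol from tissues back to the liver. Hepatocytes secrete its structural protein apolipoprotein A-I together with apolipoprotein A-II, the plasma enzyme LCAT esterifies the cholesterol on the particle, PLTP moves phospholipid between particles, and the receptor SR-BI, encoded by Scarb1, takes up cholesteryl ester at the hepatocyte surface. Apolipoproteins A-V and C-III act on triglyceride-rich particles in opposite ways, the first promoting and the second slowing their lipolysis. During inflammation, serum amyloid A is loaded onto HDL. IKK2 is a kinase that activates the transcription factor NF-kB, and the comparison asks how this set of liver transcripts stood when that kinase was switched on.

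Of the 10 genes, 1 fell in transgenic liver and 0 rose; the gene that fell was Apoa5. A gene counts as higher or lower where limma's test gave an adjusted p under 0.05 over all probe sets tested. Over all 19938 genes 1.67% were lower, 4.67% higher and 6.34% either, so 1 of 10 is a single gene set against a background of that size. All 10 are bright. Among the 2141 genes with a control mean at or above that of the dimmest of the 10, 3.78% were lower and 4.53% higher. At an unadjusted p under 0.05, 4 of the 10 passed (Apoa4, Apoa5, Apoc3 and Scarb1), against 33.6% of all genes. The fold change was negative for 8 of the 10, against 61.6% of all genes, and their median log2 fold change was -0.19, against -0.07 over all genes. The 4 transgenic readings lay wholly below the 4 control readings for 3 of the 10 (Apoa1, Apoa5 and Apoc3), against 11.2% of all genes. They lay wholly above for 1, Scarb1, and the share of all genes that did so was also 11.2%. Values are given as log2 expression, fold changes are transgenic minus control on that scale, and 95% confidence intervals are limma's, without adjustment for the number of genes.

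**Figure D1:**
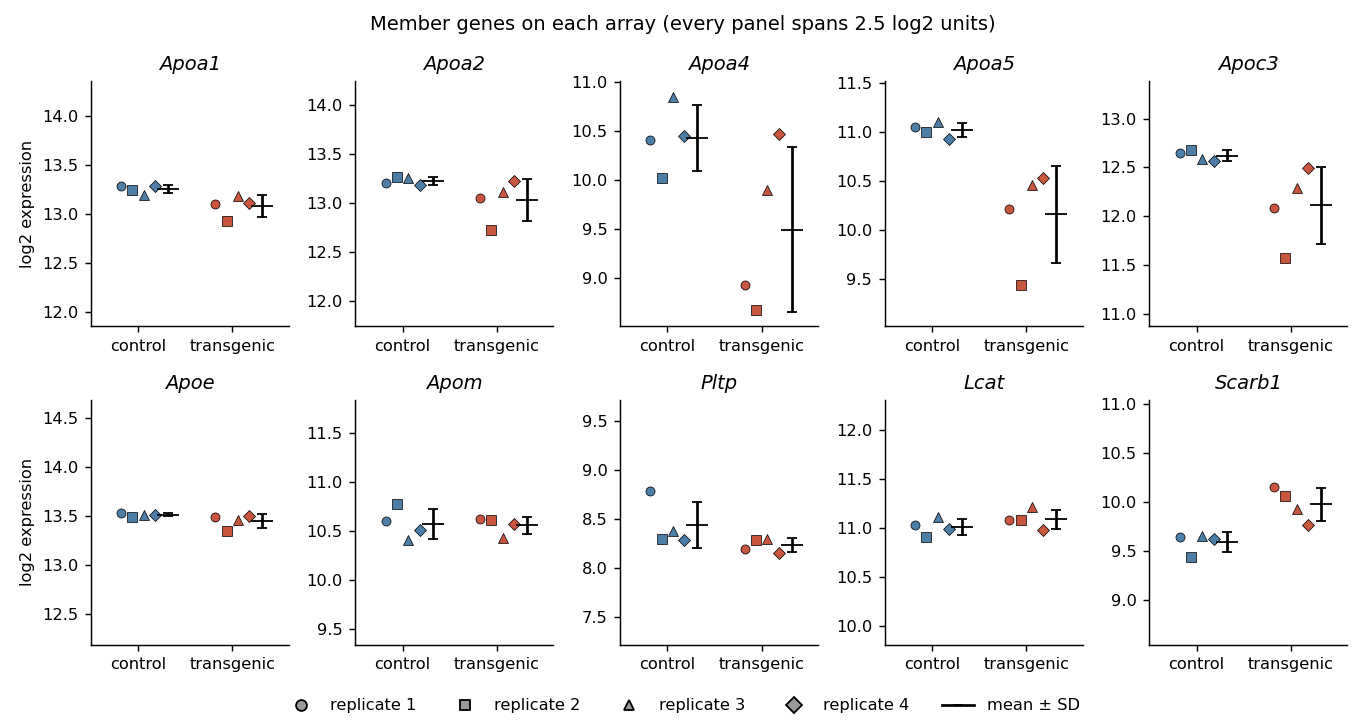
Log2 expression of the 10 genes on each of the 8 arrays; each symbol is 1 liver, its shape the replicate number, and the bar beside each group the mean ± SD (n = 4). Transgenic Apoa5 readings (9.45 to 10.53) lie below every control (10.93 to 11.10) and transgenic Scarb1 readings (9.77 to 10.15) above every control (9.43 to 9.65).

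Apoa5 encodes apolipoprotein A-V, a scarce plasma protein made in the liver that speeds the clearance of triglyceride. Its probe set, 10585015, read 11.06, 11.00, 11.10 and 10.93 in control replicates 1 to 4. In transgenic replicates 1 to 4 it read 10.22, 9.45, 10.46 and 10.53. Every transgenic liver was below every control, and the transgenic livers were spread over 1.09 log2 units against 0.17 in the controls. Apoa5 fell by 0.86 on the log2 scale, which is 1.82-fold (SE 0.21, interval -1.33 to -0.39, limma adjusted p = 0.0438). Leaving out transgenic replicate 1 ended this call (adjusted p = 0.115), as did leaving out any 1 of control replicates 1 to 4 (0.0968, 0.111, 0.114 and 0.0817). Over all genes, lower calls went from 333 to 3 without transgenic replicate 1. They went to 13, 10, 35 and 32 without control replicates 1 to 4. Centring every array on its own median ended the Apoa5 call too (adjusted p = 0.0554), as did testing all deposited probe sets (0.0744). Over all genes these settings called 97 and 54 lower. The fold change of Apoa5 stayed between -0.98 and -0.62 in the 17 alternatives tried.

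Apoc3, which encodes apolipoprotein C-III, an inhibitor of lipoprotein lipase and of remnant uptake, stands beside Apoa1 on chromosome 9. Probe set 10593169 read 12.65, 12.68, 12.59 and 12.56 in the controls and 12.08, 11.58, 12.30 and 12.50 in the transgenic livers. The groups did not overlap, with transgenic replicate 4 only 0.06 below the lowest control. The log2 fold change was -0.51 (SE 0.17, interval -0.89 to -0.13), which did not pass over all genes (limma adjusted p = 0.0859). Without transgenic replicate 4 it was -0.63 and passed (adjusted p = 0.0357). That fit called 944 of all genes lower, against 333 with all arrays.

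Apoa4 encodes apolipoprotein A-IV, which is made in intestine and, in mice, also in liver, where its transcript responds to feeding state. Probe set 10585010 read 10.41, 10.02, 10.85 and 10.45 in the controls and 8.93, 8.68, 9.90 and 10.48 in the transgenic livers. Transgenic replicates 1, 2 and 3 were below every control, whereas replicate 4 lay among them. The log2 fold change of -0.94 was the most negative of the 10, with the widest interval (SE 0.36, interval -1.74 to -0.13, limma adjusted p = 0.112). It passed without transgenic replicate 4, at -1.26 (adjusted p = 0.0285), in the fit that called 944 of all genes lower. Limma called 0 of 6 enterocyte markers, while all 6 had negative changes and 3 of them (Fabp2, Alpi and Lct) passed at an unadjusted p under 0.05. Over all genes 61.6% had negative changes and 33.6% passed at an unadjusted p under 0.05. Fabp2, an intestinal fatty acid binding protein, was at -0.83 (adjusted p = 0.0546) and passed in 6 of the 17 alternatives. The list summed on the linear scale to 197 to 246 in the transgenic livers and 241 to 428 in the controls, and its defining markers Sis and Cdh17 had group means of 2.96 to 3.56, under every array median. The part of these markers in the Apoa4 readings was not tested.

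Apoa1, the main structural protein of HDL and the activator of LCAT, moved little. Probe set 10585005 read 13.29, 13.25, 13.20 and 13.29 in the controls and 13.11, 12.93, 13.18 and 13.11 in the transgenic livers. The groups were separate by 0.02, less than the spread of 0.09 among the controls. The log2 fold change was -0.17, or 1.13-fold lower (SE 0.08, interval -0.36 to 0.01, limma adjusted p = 0.168).

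Apoa1, Apoc3, Apoa4 and Apoa5 follow each other on chromosome 9 with no other protein-coding gene between them, in that order. Their fold changes were thus -0.17, -0.51, -0.94 and -0.86 along the cluster. Of the 8 protein-coding genes nearest to it, 4 on each side, 7 were measured: Tagln, Sidt2, Pafah1b2 and Sik3 on the Apoa1 side, Zpr1, Bud13 and 4931429L15Rik on the Apoa5 side. Their fold changes ran from -0.25 to 0.43, and 0 of the 7 were called (smallest limma adjusted p = 0.103). At the intervals given, the cluster's and the neighbours' changes overlap in part, and no test of the difference between them was made.

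**Figure D2:**
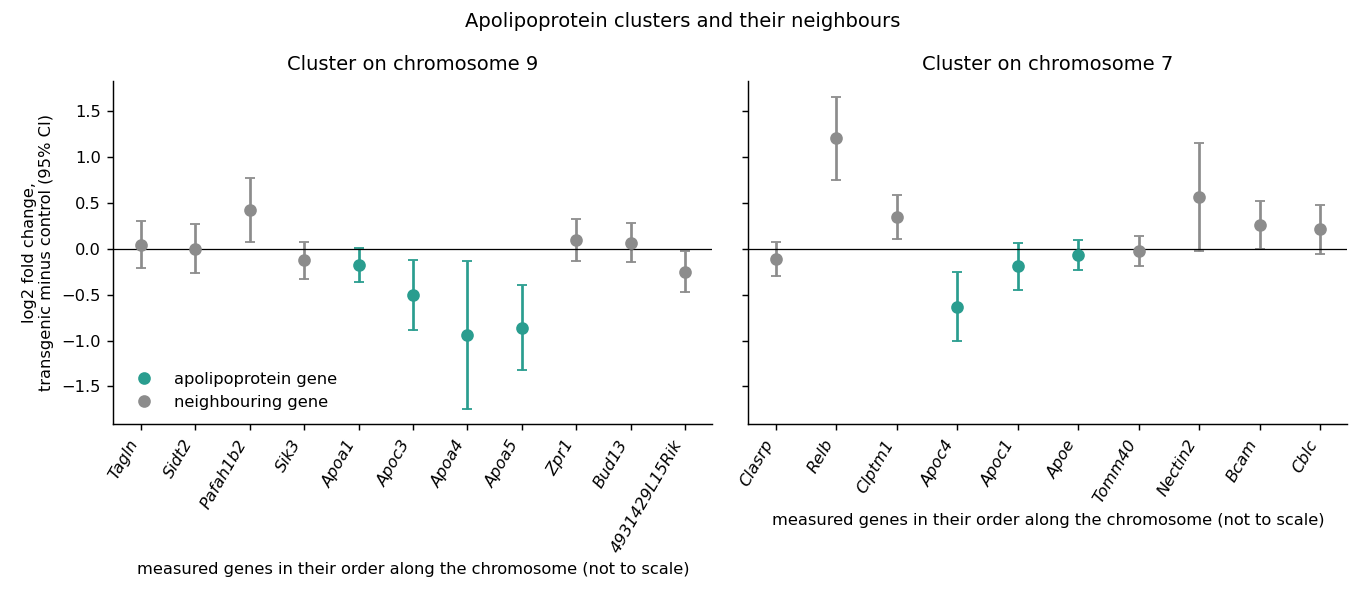
Log2 fold change with its 95% confidence interval for the measured genes in and around the apolipoprotein clusters of chromosomes 9 and 7, in order along the chromosome and not to scale. On chromosome 9 the 4 apolipoprotein genes lie at -0.17 to -0.94 and their 7 neighbours at -0.25 to 0.43; on chromosome 7 Apoc4 lies at -0.63 and Apoe at -0.07.

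The 250 bases before the transcription start are shown for Apoa5, the gene that fell, and for Apoa4 and Apoa1 of the same cluster, which did not pass. All are the plus strand of RefSeq's GRCm38.p6, at chr9:46268358-46268607, chr9:46240594-46240843 and chr9:46228380-46228629. Capitals mark matches, on either strand, to 4 short motifs: TGNACTTTG for the hepatocyte receptor HNF4, GGGNNTTTC for NF-kB's kappaB site, CACGTG for the E-box and TATAAA for the TATA box.
Apoa5: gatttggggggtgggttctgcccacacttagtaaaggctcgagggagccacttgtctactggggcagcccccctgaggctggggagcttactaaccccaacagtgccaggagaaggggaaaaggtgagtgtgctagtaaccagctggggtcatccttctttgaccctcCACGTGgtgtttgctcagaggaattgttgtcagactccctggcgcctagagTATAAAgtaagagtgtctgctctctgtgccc
Apoa4: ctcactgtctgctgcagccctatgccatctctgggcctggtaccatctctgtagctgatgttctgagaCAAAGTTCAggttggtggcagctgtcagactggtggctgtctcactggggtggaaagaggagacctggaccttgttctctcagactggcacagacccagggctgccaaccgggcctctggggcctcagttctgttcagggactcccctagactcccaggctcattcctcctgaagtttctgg
Apoa1: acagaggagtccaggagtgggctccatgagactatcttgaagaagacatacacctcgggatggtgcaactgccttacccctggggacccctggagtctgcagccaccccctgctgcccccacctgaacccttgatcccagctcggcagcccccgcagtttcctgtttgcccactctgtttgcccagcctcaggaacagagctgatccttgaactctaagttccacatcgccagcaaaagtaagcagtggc

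The windows differ in which letters they hold. The Apoa5 window holds an E-box that begins 82 bases before its start and a TATA box 31 bases before it. RefSeq has another Apoa5 start slightly downstream, not printed, before which the same matches lie at 107 and 56 bases. The Apoa4 window holds the HNF4 motif, as its reverse complement CAAAGTTCA, 182 bases before the start. The Apoa1 window holds none of the 4. Over all 32851 RefSeq windows of the same length, 1.19% hold the HNF4 motif, 3.72% the kappaB motif, 6.02% the E-box and 12.4% the TATA box. RefSeq windows were found for 8 of the 10 genes, 12 windows in all, and not for Apoc3 and Scarb1. No window of the 8 genes held the kappaB letters as spelled here. A match is a description of letters, not of binding, and no match says only that these letters are not in this window.

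Apoa2, Apoe and Apom encode HDL apolipoproteins from other chromosomes. Apoa2, the second most abundant HDL protein, read 13.20, 13.27, 13.26 and 13.18 in the controls and 13.06, 12.72, 13.12 and 13.22 in the transgenic livers, where replicate 4 lay among the controls. Its log2 fold change was -0.20 (SE 0.11, interval -0.44 to 0.05, limma adjusted p = 0.224). Apoe, the ligand by which remnant particles are taken up, read 13.49 to 13.53 in the controls and 13.48, 13.34, 13.45 and 13.50 in the transgenic livers.

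The Apoe groups overlapped, and the change was -0.07 (SE 0.07, interval -0.23 to 0.10, limma adjusted p = 0.532). Apom, the lipocalin that carries sphingosine 1-phosphate on HDL, read 10.60, 10.77, 10.41 and 10.51 in the controls and 10.62, 10.61, 10.43 and 10.57 in the transgenic livers. The transgenic readings of Apom all fell within the range of the controls, with a change of -0.02 (interval -0.23 to 0.20, limma adjusted p = 0.911). For Apoe and Apom the sign of the change turned under another scaling, to 0.01 and 0.06 once array medians were made equal. The readings of Apoa1, Apoa2 and Apoe stand near the top of the scale, since the highest value of any probe set was 14.04 to 14.13 on each array. Whether differences are compressed at that end was not tested.

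Lcat and Pltp, which remodel HDL in plasma, did not pass. Lcat read 11.03, 10.91, 11.11 and 10.99 in the controls and 11.09, 11.09, 11.21 and 10.98 in the transgenic livers, and the groups overlapped. Its change was 0.08 (SE 0.08, interval -0.11 to 0.27, limma adjusted p = 0.508). The control readings of Pltp were 8.79, 8.29, 8.38 and 8.29, against 8.20, 8.29, 8.29 and 8.16 in the transgenic livers. Its change of -0.20 (SE 0.12, interval -0.47 to 0.06, limma adjusted p = 0.241) was -0.09 without control replicate 1.

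Scarb1 encodes SR-BI, the receptor through which hepatocytes and steroid-making cells take cholesteryl ester from HDL. Probe set 10533929 read 9.64, 9.43, 9.65 and 9.62 in the controls and 10.15, 10.06, 9.93 and 9.77 in the transgenic livers. All 4 transgenic livers were above all 4 controls, by at least 0.11. The change was 0.39, or 1.31-fold higher (SE 0.10, interval 0.16 to 0.62), and lay just outside the threshold (limma adjusted p = 0.0540). It passed without transgenic replicate 4 (0.46, adjusted p = 0.0264) and when the dimmest 30% of probe sets were left out (adjusted p = 0.0489). Those fits called 1636 of 19938 and 1139 of 13983 genes higher, against 932 of 19938 as reported. Over the 17 alternatives the adjusted p of Scarb1 ran from 0.0264 to 0.148 and its change from 0.30 to 0.57. Pdzk1, the adaptor that stabilises SR-BI in hepatocytes, was at 0.09 (adjusted p = 0.540).

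**Figure D3:**
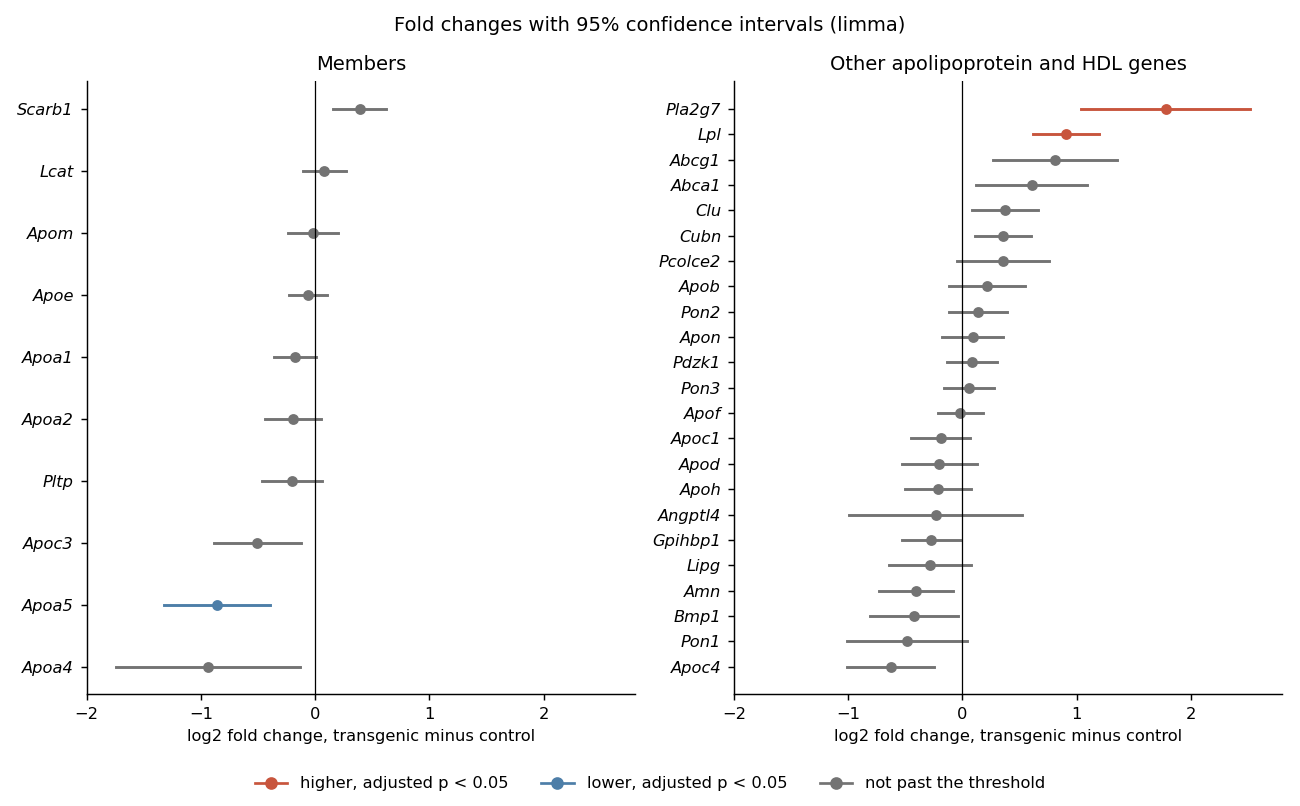
Log2 fold change (transgenic minus control) with 95% confidence intervals from limma for the 10 genes (left) and for 23 other apolipoprotein and HDL genes (right); colour marks genes past an adjusted p of 0.05. On the left only Apoa5 is coloured, with an interval of -1.33 to -0.39; on the right Lpl and Pla2g7 are.

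The 4 transgenic arrays did not read alike. Each liver had 1 array, so a difference of animals and one of arrays cannot be told apart. Transgenic replicate 2 was the lowest of the 4 for 6 of the 10 genes: Apoa1, Apoa2, Apoa4, Apoa5, Apoc3 and Apoe. For Apoa5 it stood at -1.58 from the control mean, against -0.81, -0.56 and -0.49 in replicates 1, 3 and 4. Averaged over the 10 genes, the transgenic arrays stood at -0.27, -0.49, -0.14 and -0.09 from the control mean in replicates 1 to 4, while the controls ran from -0.06 to 0.05. Without transgenic replicate 2 the changes were -0.62 for Apoa5 (adjusted p = 0.00603), -0.33 for Apoc3 and -0.66 for Apoa4. That fit called 260 of all genes lower, against 333 with all arrays. Scarb1 had another order, with replicate 1 the highest and replicate 4 the lowest of the transgenic livers.

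Markers of liver cell types differed between the same arrays. Of 12 hepatocyte markers 10 were measured, 0 were called by limma and 5 passed at an unadjusted p under 0.05, against 33.6% of all genes. Of the 10, 7 had negative changes, against 61.6% of all genes, with a median of -0.24 against -0.07. The 5 were Tdo2, Hpd, Asgr1 and Ttr, at -0.49, -0.44, -0.31 and -0.29, and Trf, at 0.20. Alb, the gene of albumin, was at 0.01 (adjusted p = 0.891). The hepatocyte list averaged 12.47, 12.27, 12.65 and 12.73 in transgenic replicates 1 to 4 and 12.69 to 12.74 in the controls, so transgenic replicate 2 was the lowest here too. Summed on the linear scale, these markers gave 64437 to 81010 in the transgenic livers and 76960 to 79213 in the controls.

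Kupffer cell and macrophage markers rose for 11 of 14, with a median change of 1.57. Their list averaged 9.35, 10.34, 9.38 and 9.03 in transgenic replicates 1 to 4 and 7.76 to 8.24 in the controls, and summed to 8834 to 19922 against 3326 to 4555. Transgenic replicate 2 was the highest. Monocyte markers rose for 6 of 7, with sums of 631 to 1860 against 226 to 244, and for 3 without control replicate 2 or control replicate 3. The part of these markers in the readings of the 10 genes was not tested. With every array shifted to the same hepatocyte marker mean, a setting added after the data were seen, the median change over all genes went from -0.07 to 0.11. Under that setting Apoa5 was at -0.67 and passed (adjusted p = 0.0451), Apoc3 was at -0.32 and Apoa4 at -0.75. Apoa1 was at 0.01 and Scarb1 at 0.57 (adjusted p = 0.0844). That fit called 61 of all genes lower and 504 higher, against 333 and 932 as reported. The markers behind the shift themselves ran from -0.49 to 0.20, and whether they track hepatocyte content was not tested.

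**Figure D4:**
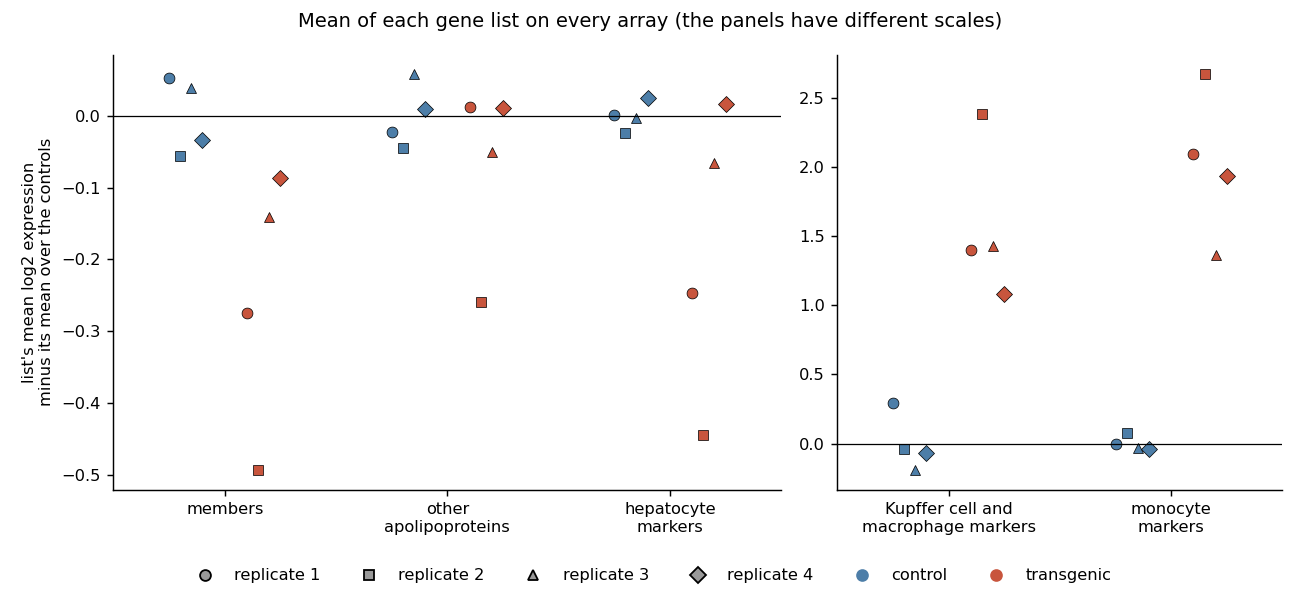
Mean log2 expression of a gene list on each array minus the same list's mean over the 4 controls; each symbol is 1 liver, its shape the replicate number, and the right panel has another scale. Transgenic replicate 2 (square) is the lowest for the 10 genes (-0.49) and for hepatocyte markers and the highest for both macrophage and monocyte markers.

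Other cell types gave fewer calls. Of the T and NK cell markers 3 of 8 rose, Cd3g, Nkg7 and Cd2 (1.53, 1.52 and 0.55), against 4.67% of all genes. That count was 1 without control replicate 2, 3 or 4 and 5 without transgenic replicate 3. All 8 had positive changes, against 7654 of all 19938 genes. The list stood at 0.72, 1.24, 0.58 and 0.40 from the control mean in transgenic replicates 1 to 4. The controls ran from -0.08 to 0.04. The collagen Col1a1 was the 1 of 8 stellate and fibroblast markers that rose (0.71), and the carbonic anhydrase Car1 the 1 of 4 erythroid markers that fell (by 1.62). Of the 8 fits that each left out 1 array, Col1a1 passed in 5 and Car1 in 3. Limma called 0 of 6 neutrophil, 0 of 8 endothelial, 0 of 5 bile duct and 0 of 4 B cell markers. In that order, 1, 2, 1 and 0 of them passed at an unadjusted p under 0.05, against 33.6% of all genes. The neutrophil list nevertheless stood at 1.10 from the control mean in transgenic replicate 2, the array lowest for most of the 10 genes, against 0.02, 0.10 and 0.07 in transgenic replicates 1, 3 and 4. Its sum was 224 there and 91.2 to 103 on the other 7 arrays.

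The remaining apolipoproteins were read by 8 of 9 genes, without Apoc2. Limma called 0 of the 8, and the median change was -0.10. At an unadjusted p under 0.05, 2 passed (Apoc4 and Clu), against 33.6% of all genes. Apoc4, a minor apolipoprotein of VLDL encoded beside Apoe, read 9.82, 10.07, 9.69 and 9.75 in the controls and 9.29, 8.68, 9.34 and 9.50 in the transgenic livers. The groups did not overlap, and the change was -0.63 (SE 0.17, interval -1.01 to -0.25, adjusted p = 0.0560). It passed in 5 of the 17 alternatives. In the same cluster Apoc1 was at -0.19 (adjusted p = 0.254) and Apoe at -0.07. Relb, a subunit of NF-kB encoded near that cluster on chromosome 7, rose by 1.20 (adjusted p = 0.0153), and Clptm1, between Relb and the cluster, was at 0.35 (adjusted p = 0.0731). Of the 7 measured neighbours of that cluster only Relb was called, and their changes ran from -0.11 to 1.20. Apob, the structural protein of VLDL and LDL, was at 0.22 (adjusted p = 0.315), and Clu, apolipoprotein J, at 0.37 (adjusted p = 0.0911).

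Other genes that form, remodel or clear HDL were measured for 15 of 17. Of these 2 rose and 0 fell, with a median change of 0.09 that turned to -0.000453 after quantile normalization. Lpl, the lipase that hydrolyses triglyceride in circulating particles and is low in adult hepatocytes, read 9.60, 9.85, 10.11 and 9.67 in the controls and 10.76, 10.91, 10.69 and 10.52 in the transgenic livers. Every transgenic liver was above every control, and Lpl rose by 0.91, or 1.88-fold (SE 0.13, adjusted p = 0.00759), in all 17 alternatives. Pla2g7, a phospholipase carried on lipoproteins and made by macrophages, read 7.63, 5.98, 7.13 and 6.18 in the controls and 8.24, 8.82, 8.65 and 8.33 in the transgenic livers. It rose by 1.78 (SE 0.33, adjusted p = 0.0202) and passed in 13 of the 17 alternatives, but in only 4 of the 8 that each left out 1 array (highest adjusted p = 0.0654).

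Abca1 and Abcg1 encode the transporters that load cholesterol onto nascent and mature HDL. Abca1 read 9.72, 8.66, 9.63 and 9.51 in the controls and 9.81 to 10.18 in the transgenic livers. Its change was 0.61 (SE 0.22, adjusted p = 0.0965), and 0.36 at the lowest over the alternatives. Abcg1 read 7.09 to 7.34 in the controls and 7.92, 8.88, 7.68 and 7.63 in the transgenic livers, a change of 0.81 (SE 0.24, adjusted p = 0.0680). For both genes the groups did not overlap, and transgenic replicate 2 was the highest. Macrophages also express Abca1, Abcg1, Lpl and Pla2g7. The part of the macrophage markers given above in these 4, as in the 10 genes and the other lists, was not tested. Pon1, the HDL-bound paraoxonase, read 11.34, 10.64, 11.91 and 11.75 in the transgenic livers and 11.82 to 11.99 in the controls, with a change of -0.49 (adjusted p = 0.173).

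Acute phase proteins that ride on or travel with HDL were measured for 8 of 8, and 7 rose. Their median change was 1.00, against -0.07 over all genes. Serum amyloid A, which replaces part of apolipoprotein A-I on HDL in inflammation, is encoded by Saa1, Saa2, Saa3 and the constitutive Saa4. Saa2 read 6.67 to 7.22 in the controls and 11.19, 12.28, 9.46 and 10.27 in the transgenic livers, and rose by 3.92 (SE 0.49, adjusted p = 0.00436). Saa1 and Saa3 rose by 4.75 and 6.47, in all 17 alternatives. Saa4 rose by 1.02 (adjusted p = 0.0276), a call made in 11 of the 17 and in 3 of the 8 that each left out 1 array (highest adjusted p = 0.0955). Saa1 and Saa2 are close paralogs, and whether their probe sets tell them apart was not tested.

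Among the rest of that list, the lipopolysaccharide carrier Lbp rose by 0.98 and haptoglobin, Hp, by 0.74. Hp read 12.69 to 12.83 in the controls and 13.30 to 13.60 in the transgenic livers, a stretch of the scale that also holds Apoa1 and Apoa2. For Saa1, Saa2 and Saa3, as for Apoa5, transgenic replicate 2 was the farthest from the controls and replicate 1 the next. Replicates 3 and 4 stood in the opposite order for these 3 genes and for Apoa5.

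Genes of VLDL assembly and remnant uptake were measured for 11 of 14. Of these 2 rose and 0 fell, with a median of -0.08. Apobec1, the enzyme that edits the Apob transcript, rose by 1.04 (SE 0.17, adjusted p = 0.0146), and Mylip, a ubiquitin ligase, by 0.51 (SE 0.10, adjusted p = 0.0250). Apobec1 passed in 14 and Mylip in 11 of the 17 alternatives (highest adjusted p = 0.0595 and 0.0836). Of the 8 fits that each left out 1 array, Apobec1 passed in 5 and Mylip in 3. Genes of cholesteryl ester storage and sterol export were measured for 6 of 8, without Soat1 and Soat2. The canalicular sterol exporter Abcg5 fell by 0.72 (SE 0.16, adjusted p = 0.0370, called in 9 of the 17 alternatives, highest adjusted p = 0.105). The fits that each left out 1 array called it in 4 of 8. Its partner Abcg8 was at -0.78 (adjusted p = 0.0825).

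Nuclear regulators of apolipoprotein genes were measured for 14 of 16, and their median change was -0.25. Of these 2 fell and 0 rose. Creb3l3, a liver transcription factor that activates Apoa4, Apoa5 and Apoc2, read 9.34, 9.30, 9.14 and 9.48 in the controls and 8.99, 8.94, 8.91 and 8.96 in the transgenic livers. All transgenic livers were below all controls, and Creb3l3 fell by 0.37 (SE 0.09, adjusted p = 0.0431), a call made in 5 of the 17 alternatives (highest adjusted p = 0.424). Nr0b2, the repressor SHP, fell by 0.91 (SE 0.21, adjusted p = 0.0403), a call made in 9 of them (highest 0.112). Hnf4a, which drives most hepatic apolipoprotein genes, was at 0.09 (interval -0.08 to 0.25, adjusted p = 0.400).

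Likeness of profile was measured for Apoa5 and Scarb1, the members with the smallest p. It is the root mean square difference between log2 readings over the 8 arrays, each gene centred on its control mean. Nearest to Apoa5 were Fpgs, a folate enzyme, Cyp2d22, a cytochrome P450, and Aspg, an asparaginase, at 0.10, 0.10 and 0.11 log2 units. Fpgs and Aspg fell by 0.82 and by 0.88 (adjusted p = 0.0496 and 0.0491), and Cyp2d22 was at -0.79 (adjusted p = 0.0518). Nearest to Scarb1 were Man1a, Hace1 and Clptm1, all between 0.05 and 0.06 log2 units away.

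**Figure D5:**
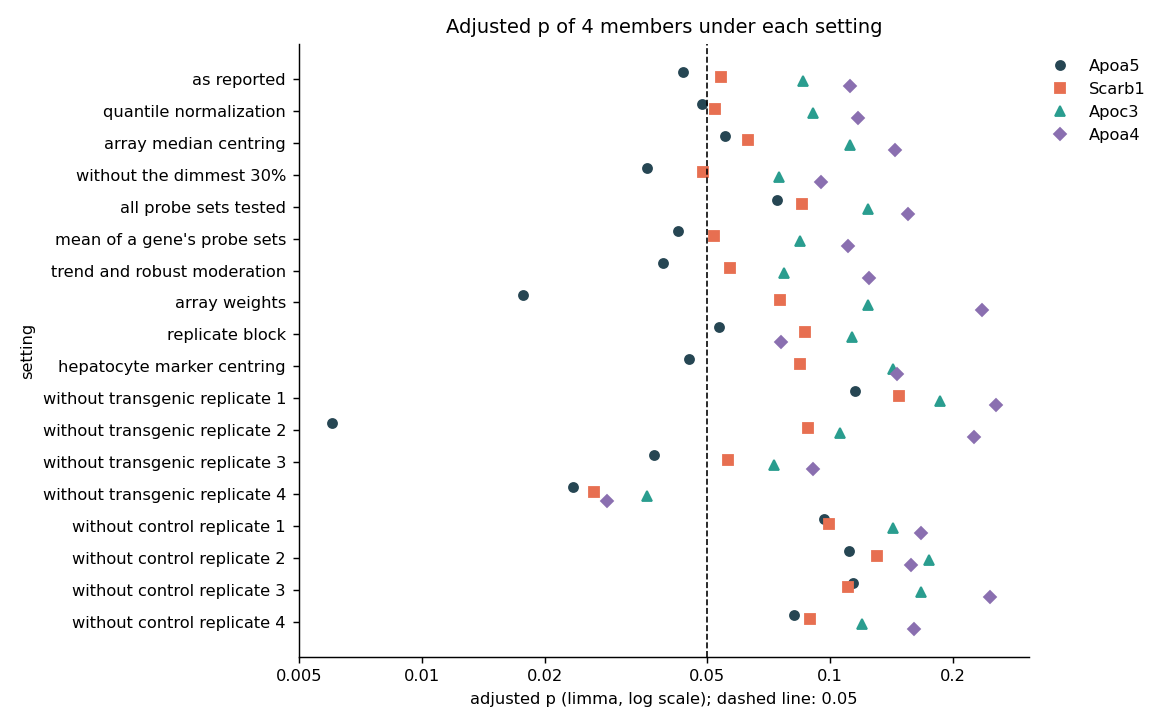
Adjusted p from limma, on a log scale, for Apoa5, Scarb1, Apoc3 and Apoa4 as reported and under 17 alternatives; the dashed line marks 0.05. Apoa5 lies left of the line in 9 alternatives, Scarb1 in 2, and Apoc3 and Apoa4 in 1 each, that without transgenic replicate 4.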

How the data were processed

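RNA from frozen liver was labelled by a whole-transcript sense-target assay, per the labels' protocols. Each array came as the authors' log2 expression by probe set, which the submitters' processing notes credit to Affymetrix Expression Console; version, settings and normalization were not given in the sources used here. Base 2 was read from the values (maximum 14.1). Array medians ran from 4.88 to 5.08, so no further scaling was applied. Scanner and detection values were not used here. Precision is limited by the number of arrays.

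Of 35556 probe sets, 21789 carry 1 symbol, 1621 several and 12146 none. Entrez identifiers of 21698 matched RefSeq's GRCm38.p6 annotation, with 0 symbols altered by it. It also gave the gene order. Limma 3.58.1 in R 4.3.3 (the data.table package, version 1.17.8) fitted the group to all 21789 by linear model with empirical Bayes (prior df 3.77); tests were two-sided, adjusted by Benjamini and Hochberg over them. Each gene is read through its brightest probe set, giving 19938 genes. Figures were drawn in Python 3.11.15 with matplotlib 3.10.9 and pandas 2.3.3. The fit was first tested on simulated data.

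Genes were named by a rule: all members; of each of 6 pathway lists the called genes, at most 6, or else the one with the smallest p; and the nearest profiles of 2 members. Apob, Clu, Apoc1, Abca1, Abcg1, Pon1, Pdzk1, Abcg8, Hnf4a, Alb, Tdo2, Hpd, Asgr1, Ttr, Trf, Sis, Cdh17, Fabp2, Alpi, Lct, Relb, Clptm1, the other neighbouring genes and the markers of short counts stand outside it and were chosen after their values were seen. Members and lists were chosen with earlier results of these data known. Alternatives were quantile normalization, array median centring, hepatocyte marker centring, leaving out the dimmest 30%, testing all probe sets, averaging probe sets, trend and robust moderation, weights per array, a block for replicate number, and leaving out each array. A pseudocount, planned for linear values, was not needed for log2 values.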

Additional observations from a re-analysis of the deposited data

Results flagged for a closer look

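The Scarb1 reading of control replicate 2 was 9.43, while control replicates 1, 3 and 4 gave 9.62 to 9.65, a gap large against the range of that group of 4. It was the only one among 20 groups of 4 readings (10 genes in both groups) to stand apart by that measure, and chance flags about 1 in 20. Without that array the Scarb1 change was 0.34 (adjusted p = 0.130).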

How the results depend on the processing

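Over 17 alternatives, 151 of 170 member values kept their sign and their side of the threshold, 8 lost a call, 4 gained one and 7 changed sign. The number of members lower, 1 as reported, was 0 with array median centring, 0 with all probe sets tested, 0 with the replicate block, and 0 to 3 when each array was left out in turn. The 3 were Apoa4, Apoa5 and Apoc3 without transgenic replicate 4. Over all genes 333 were lower as reported, and 97, 54 and 174 in the 3 settings named. When arrays were left out the genes lower ran from 3 to 944, the 944 without transgenic replicate 4. The number of members higher, 0 as reported, was 1 (Scarb1) without the dimmest 30% and 0 to 1 when arrays were left out. Over all genes 932 were higher as reported, 1139 of 13983 without the dimmest 30% and 1636 without transgenic replicate 4. Signs turned with hepatocyte marker centring for Apoa1 (0.013), Apoe (0.12) and Apom (0.17), with array median centring for Apoe (0.014) and Apom (0.063), and for Apom without transgenic replicate 3 (0.026) and without control replicate 2 (0.050); Apom ran from -0.071 to 0.050 when arrays were left out. None of these 7 was called in either direction (smallest adjusted p = 0.527). The labels give both groups the numbers 1 to 4 without saying that they pair animals. Deviations of same-numbered arrays from their group means correlated at 0.24, -0.03, 0.26 and -0.13, so the numbers were not treated as pairs. With the replicate block Apoa5 kept -0.86 at an adjusted p = 0.0535. The lists' counts moved as well when arrays were left out: 1 to 3 higher for other HDL genes (2 as reported), 0 to 2 higher for VLDL and remnant genes (2), 0 to 2 lower for nuclear regulators (2), 5 to 7 higher for acute phase proteins (7), 7 to 13 higher for macrophage markers (11), 3 to 7 for monocyte markers (6) and 1 to 5 for T and NK cell markers (3). Quantile normalization put the share of higher among called genes at 62.6% and hepatocyte marker centring at 89.2%, against 73.7% as reported. Signal over background was not measured here.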
